A study of Bos taurus with 12 samples.

Results

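Interferon-stimulated genes are the genes that cells switch on when an interferon binds its receptor, and they were described here by name in bovine cumulus-oocyte complexes. The list held 34 genes, listed by symbol, with no measured value in the rule. Of these, 33 had a row among the 17983 gene rows of the count table, each with a single row. BST2 was not analysed here. All 33 passed the filter on low counts, so no member was lost to it. The transcription factors of the IRF family were not in the list.

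A cumulus-oocyte complex is an oocyte with the layers of cumulus granulosa cells around it. The nanoplastics group was 6 samples of complexes matured in vitro in medium with 3 µg/mL of polystyrene particles 50 nm across. The control group was 6 samples matured in control medium. Each sample pooled 50 complexes, and polyadenylated RNA was sequenced. The material came from 3 batches, but the labels do not assign samples to them, and batches could not be compared separately.

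Type I and type III interferons signal through receptor-bound JAK kinases to transcription factors, STAT2 and IRF9 among them, that bind interferon response elements in promoters. The induced proteins block viral entry, translation, RNA synthesis or assembly, sense foreign nucleic acid, or attach the ubiquitin-like protein ISG15 to other proteins. In cattle the best known setting is early pregnancy, in which interferon tau from the conceptus raises ISG15 and MX genes in the endometrium and in blood cells. GBP genes respond mainly to interferon gamma.

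Total counts ran from 14167578 to 18684140 in nanoplastics libraries and from 15873865 to 20008464 in control libraries. At these depths a count of 0 allowed a level of up to 0.150 to 0.212 CPM (counts scaled to a common library size), from counting error only. KPNA7, an oocyte importin, had 84.0 to 131 CPM in nanoplastics libraries and 105 to 159 CPM in control libraries, and the cumulus marker SERPINE2 had 6084 to 7349 and 5788 to 7328 CPM. Of the leukocyte markers, all 12 had a row, and PTPRC, the pan-leukocyte antigen, reached at most 0.483 CPM in nanoplastics libraries and 0.223 CPM in control libraries. CD3E and CD52, markers of T cells and lymphocytes, had at most 4 and 1 counts in any library. Other leukocyte markers were detected, and 6 of the 12 passed the filter on low counts. CD68, the most counted of the list, had 3.66 to 6.57 CPM in nanoplastics libraries and 3.04 to 6.35 CPM in control libraries. The summed level of the leukocyte list was 9.39 to 23.0 CPM in nanoplastics libraries and 7.39 to 13.4 CPM in control libraries. RNA of oocyte and cumulus cells was sequenced together, so fewer cells expressing a gene and less of its RNA per cell cannot be told apart.

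One library had the lowest level of most of these genes. Nanoplastics 1 had the lowest value of all 12 libraries for 30 of the 33 genes, and for 31 genes it lay below every control library. The share of all genes tested that were lowest in Nanoplastics 1 was not computed. The level in Nanoplastics 1 was a median of 0.536 times the control median, from 0.240 times for GBP5 to 0.961 times for CMPK2. Control 1 lay at the other end, with the highest value of all libraries for 14 genes. The main results are therefore also given without Nanoplastics 1.

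**Figure D1:**
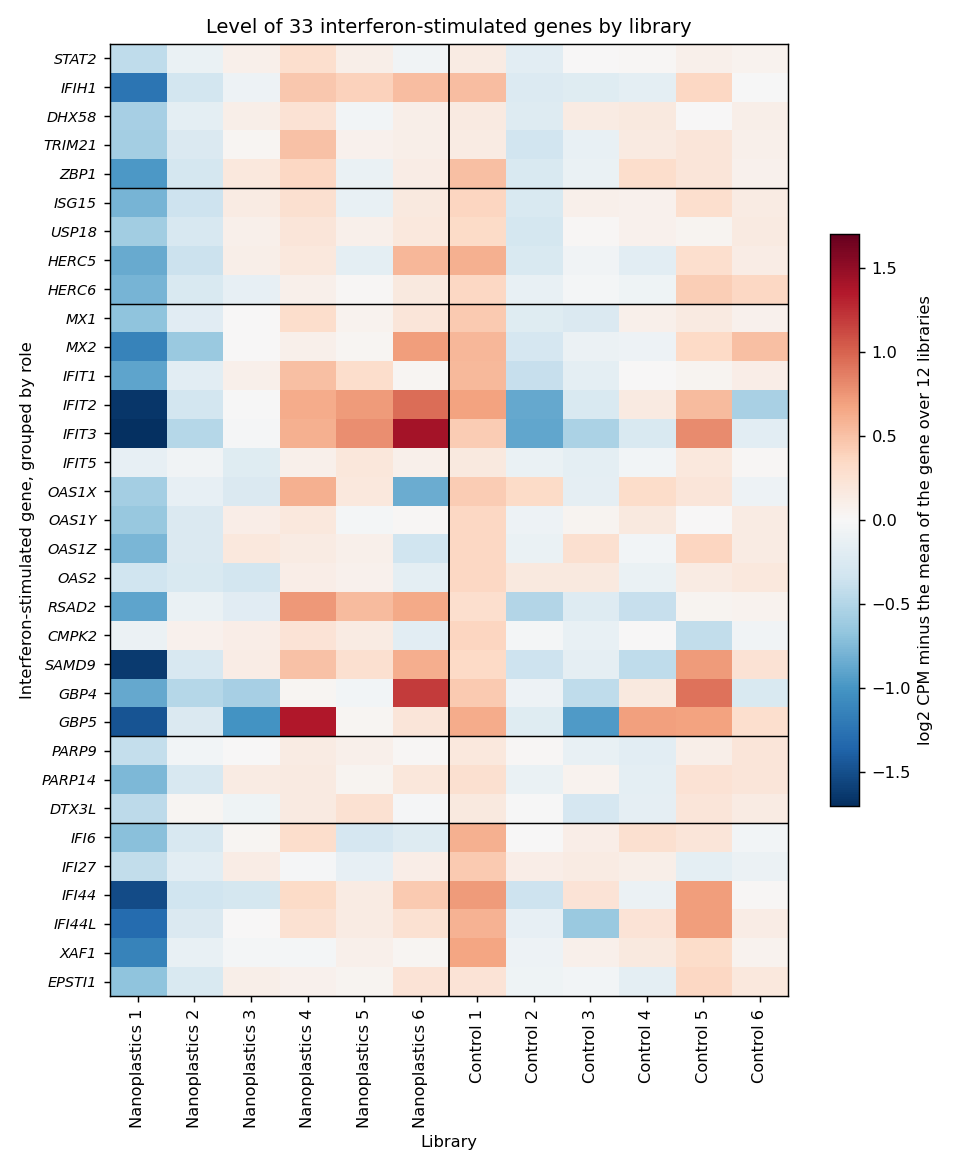
The heat map plots 33 interferon-stimulated genes (rows, in blocks by role) in 12 libraries (columns, nanoplastics left of control) as log2 CPM minus the mean of the gene over all libraries, red above and blue below that mean. The column of Nanoplastics 1 is blue in all 33 rows, with the lowest value of 30 genes, and the column of Control 1 is red in all rows, with the highest value of 14 genes.

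Libraries of the same group differed in the mean level of the set, although not every gene followed it. The mean log2 CPM over the 33 genes was 4.75, 5.35, 5.55, 5.90, 5.71 and 5.82 in Nanoplastics 1 to 6. It was 6.00, 5.40, 5.48, 5.61, 5.87 and 5.66 in Control 1 to 6. The groups overlapped, and Nanoplastics 4 stood above all control libraries but Control 1. Group means were 5.51 ± 0.42 in nanoplastics libraries and 5.67 ± 0.23 in control libraries (SD, n = 6 each). The genes took 0.370% ± 0.0799 of all counts in nanoplastics libraries and 0.417% ± 0.0585 in control libraries (SD, n = 6 each). In Nanoplastics 1 none of the 33 genes exceeded its own median over the 12 libraries, and in Nanoplastics 2 only 2 did. In Nanoplastics 4 there were 31 such genes, in Control 1 all 33, in Control 2 only 3 and in Control 5 there were 28. Nanoplastics 3, with 15, was near the middle. Among the genes that departed from the mean, IFIT5 was lowest in Nanoplastics 3, OAS1X in Nanoplastics 6 and CMPK2 in Control 5.

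The biological coefficient of variation, the relative spread between samples beyond counting noise, had a median of 0.186 over the members and 0.124 over all genes tested. It ran from 0.110 for IFIT5 to 0.482 for GBP5. The highest library held a median of 2.30 times the CPM of the lowest, from 1.32 times for IFIT5 to 9.18 times for IFIT3.

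The main comparison asked whether complexes matured with the particles held more or less RNA of these genes. Their values leaned to lower levels with nanoplastics, but no gene passed the test against the spread between libraries. Of the 33 genes, 29 had a log2 fold change below 0, with a median of -0.14, against 49.5% of all genes tested and a median over all genes of 0.001. No gene passed an adjusted p of 0.05 in edgeR's quasi-likelihood test, adjusted by Benjamini-Hochberg over 12311 genes (0 members, 0% of genes tested). Every member had an adjusted p of 0.999. At an unadjusted p under 0.05 there were 2 members, both lower, beside 1.03% of all genes tested in that direction and 2.10% in either. DESeq2 called 0 genes as well, with 4 members at an unadjusted p under 0.05, a count not set beside all genes of that run. In all 33 genes the ranges of the groups overlapped, but overlap was not counted over all genes tested, so this sets no member apart. For 18 genes the 95% interval reached neither a 1.5-fold increase nor a 1.5-fold decrease, and for 30 it stayed inside 2-fold.

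The lean depended on Nanoplastics 1. Without Nanoplastics 1 the median log2 fold change was -0.000979 and 17 of the 33 genes lay below 0. Without Control 1 the median was -0.09 with 22 genes below 0, without Control 5 it was -0.10 with 23, and without Nanoplastics 2 it was -0.09 with 25. In the authors' deposited table all 33 genes are listed, 29 with a negative log2 fold change, and the median is -0.15. There 3 members are at an unadjusted p under 0.05, a count not set beside all genes of that table. The smallest of these in the authors' deposited table is that of IFI6, with p = 0.00970, and none passes after the authors' adjustment.

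**Figure D2:**
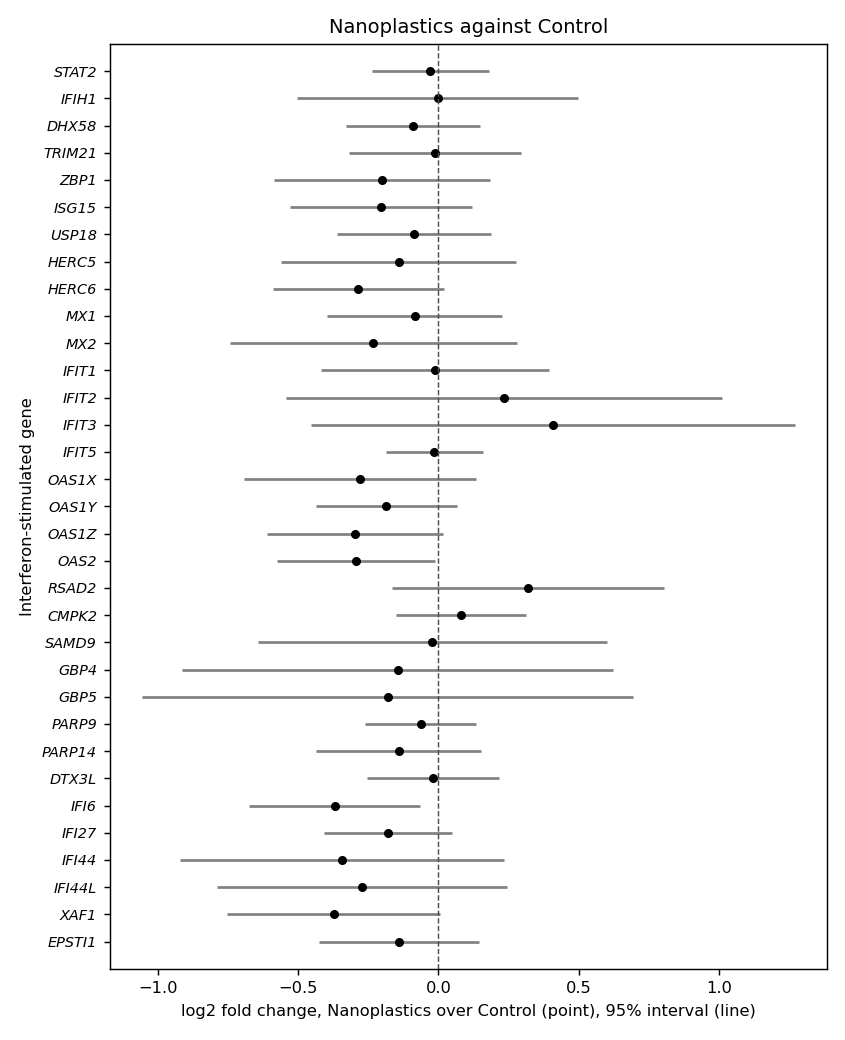
Points are log2 fold changes of nanoplastics over control from edgeR's fit over 12 libraries and lines are 95% intervals, for 33 genes in role order from top to bottom. Most points lie left of 0, and the intervals of IFI6 and OAS2 are the only 2 that do not include 0.

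Sensors and signalling members were close to 0. STAT2, a transcription factor activated at the interferon receptor, had 93.2, 127 and 153 CPM (lowest, median and highest of 6) in nanoplastics libraries, against 111, 129 and 138 CPM in control libraries. The nanoplastics libraries spanned the control range on both sides, and the log2 fold change was -0.03 (95% interval -0.24 to 0.18). In assembly ARS-UCD2.0 the span of STAT2 overlaps that of IL23A, so its reads are uncertain where strand was not used in counting. IFIH1, the MDA5 sensor of long double-stranded RNA, had a value of -0.002 (-0.50 to 0.50). TRIM21, an intracellular antibody receptor and ubiquitin ligase, had -0.01 (-0.32 to 0.29). DHX58, the RIG-I-like receptor LGP2, had -0.09 (-0.33 to 0.15), and ZBP1, a sensor of Z-form nucleic acid, -0.20 (-0.59 to 0.18). The median log2 fold change of these 5 genes was -0.03, with all 5 below 0. Without Nanoplastics 1 only 2 of the 5 lay below 0 and the median was 0.047, with STAT2 at 0.047, IFIH1 at 0.16 and TRIM21 at 0.086. With any 1 library left out the median ran from -0.14 to 0.047. IFIH1 also had a value of 0.000902 without the count filter.

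The ISG15 system held 4 members, all with values below 0 and a median of -0.17. Without Nanoplastics 1 the median was -0.053 and 3 of the 4 lay below 0, with USP18 at 0.00681. With any 1 library left out it ran from -0.28 (without Nanoplastics 6) to -0.053. ISG15 (ENSBTAG00000014707), the ubiquitin-like modifier itself, had 151, 262 and 315 CPM in nanoplastics libraries, against 218, 283 and 337 CPM in control libraries. Nanoplastics 1 and Nanoplastics 2, at 151 and 205 CPM, were below every control library, and the other 4 nanoplastics libraries lay within the control range. Its log2 fold change was -0.20 (SE 0.15, 95% interval -0.53 to 0.12). HERC6, a member of the HERC ligase family, had -0.29 (-0.59 to 0.02), with all 6 nanoplastics libraries below the control median. HERC5, the main ligase that attaches ISG15 in human cells, had -0.14 (-0.56 to 0.28). USP18, the protease that removes ISG15 and restrains the receptor, had -0.09 (-0.36 to 0.19).

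Of the 15 antiviral effectors measured, 11 had values below 0 and 4 above, with a median of -0.09. Without Nanoplastics 1 only 5 lay below 0 and the median was 0.015, and without Control 1 there were 7 below 0. MX1 (ENSBTAG00000030913), a dynamin-like GTPase that blocks viral ribonucleoproteins, had 332, 543 and 653 CPM in nanoplastics libraries, against 450, 560 and 725 CPM in control libraries. Only Nanoplastics 1 lay outside the control range, and the log2 fold change was -0.09 (SE 0.15). MX2, its paralog, had -0.23 (-0.74 to 0.28). SAMD9, an antiviral and growth-restraining protein, had 2.83, 10.4 and 13.9 CPM in nanoplastics libraries, against 6.66, 9.39 and 15.0 CPM in control libraries. Its median was thus slightly higher with nanoplastics while Nanoplastics 1 was far lower than any control library, and the log2 fold change was -0.02 (-0.64 to 0.60).

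The 4 members with values above 0 were IFIT2, IFIT3, RSAD2 and CMPK2. RSAD2 encodes viperin, which makes a chain-terminating nucleotide, and CMPK2 is a mitochondrial nucleotide kinase. RSAD2 (ENSBTAG00000016061) had 53.3, 118 and 166 CPM in nanoplastics libraries, against 70.2, 94.2 and 121 CPM in control libraries. Nanoplastics 4, 5 and 6, at 166, 144 and 155 CPM, were above every control library, and Nanoplastics 1 was below all of them. The log2 fold change of RSAD2 was 0.32 (SE 0.23, 95% interval -0.16 to 0.80), and that of CMPK2 was 0.08 (-0.15 to 0.31).

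IFIT proteins bind foreign RNA at its capped or triphosphate end. IFIT3 (ENSBTAG00000009768) had 1.53, 6.55 and 14.1 CPM in nanoplastics libraries, against 2.77, 4.44 and 9.15 CPM in control libraries. Nanoplastics 6 was the highest library and Nanoplastics 1 the lowest, and the log2 fold change was 0.41 (SE 0.41, 95% interval -0.46 to 1.27), the largest in size among the members. IFIT2 had 1.18, 5.09 and 7.78 CPM in nanoplastics libraries, against 2.11, 3.87 and 6.44 CPM in control libraries, with a log2 fold change of 0.23 (-0.54 to 1.01). IFIT1 and IFIT5, with log2 fold changes of -0.01 and -0.01, stood at 68.3 to 182 and 174 to 230 CPM in nanoplastics libraries, against 96.9 to 186 and 179 to 228 CPM in control libraries. IFIT5 was thus the steadiest member over the 12 libraries and IFIT3 the widest in range. In assembly ARS-UCD2.0, IFIT2 and IFIT3 are neighbours, as are RSAD2 and CMPK2. The spans of IFIT2, IFIT3 and IFIT5 overlap that of LIPA, a lysosomal lipase, so their reads are uncertain where strand was not used in counting.

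Cattle carry 3 copies of the OAS1 gene, which makes the short oligoadenylates that activate RNase L. OAS1Y (ENSBTAG00000039861) had 217, 338 and 384 CPM in nanoplastics libraries, against 320, 361 and 434 CPM in control libraries, with a log2 fold change of -0.19 (SE 0.12). OAS1X (ENSBTAG00000053807) had 52.9, 83.5 and 145 CPM in nanoplastics libraries, against 85.4, 114 and 129 CPM in control libraries, with a value of -0.28 (SE 0.19). OAS1Z (ENSBTAG00000037527) had 10.4, 17.0 and 20.2 CPM in nanoplastics libraries, against 16.4, 20.6 and 23.0 CPM in control libraries, with a value of -0.30 (SE 0.15), and all 6 nanoplastics libraries lay below the control median. The copies did not move as one. Nanoplastics 1, 3 and 6 were below every control library for OAS1X and Nanoplastics 4 above them all. Nanoplastics 6 was the lowest, at 52.9 CPM, while its OAS1Y level was within the control range. For every 100 reads of OAS1Y there were 15.4 reads of OAS1X in Nanoplastics 6, with 21.9 to 37.7 in the remaining nanoplastics libraries and 24.0 to 37.4 in control libraries. Reads that fit more than 1 near-identical copy may be split between them or dropped, so these values are uncertain.

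OAS2, a related enzyme with a tandem domain, was 1 of the 2 members at an unadjusted p under 0.05. It had 3.48, 3.79 and 4.80 CPM in nanoplastics libraries, against 4.06, 4.98 and 5.66 CPM in control libraries. Nanoplastics 1, 2, 3 and 6 were below every control library and all 6 were below the control median, although the ranges overlapped. The log2 fold change was -0.29 (SE 0.13, unadjusted p = 0.0425), with an adjusted p of 0.999 by edgeR. The OAS2 and OAS1Y spans overlap in ARS-UCD2.0, so their reads are uncertain where strand was not used.

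GBP4 and GBP5, guanylate-binding proteins that attack intracellular pathogens, were the least counted members. GBP5 had 0.884, 2.45 and 6.97 CPM in nanoplastics libraries, against 1.30, 3.69 and 4.36 CPM in control libraries. Nanoplastics 4 was the highest and Nanoplastics 1 the lowest, and the log2 fold change was -0.18 with a wide interval of -1.06 to 0.69. That of GBP4 was -0.15 (-0.91 to 0.62), from counts of 12 to 62 per library.

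PARP9, DTX3L and PARP14 lie side by side in ARS-UCD2.0. PARP9 and DTX3L form a complex that joins ADP-ribosylation to ubiquitin transfer, and PARP14 is a mono-ADP-ribosyltransferase. Their log2 fold changes were -0.06 (-0.26 to 0.13), -0.02 (-0.25 to 0.21) and -0.14 (-0.44 to 0.15) in that order, and only PARP14 lay below 0 without Nanoplastics 1. PARP9 and DTX3L were among the steadier members, at 49.7 to 72.6 and 60.6 to 98.8 CPM in nanoplastics libraries, against 58.2 to 76.2 and 67.6 to 95.1 CPM in control libraries. Their spans overlap, so reads from the shared stretch cannot be assigned without strand. The same limit holds for PARP14, whose span overlaps that of HSPBAP1.

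The 6 genes of the last group, IFI6, IFI27, IFI44, IFI44L, XAF1 and EPSTI1, had the lowest median of the role groups. All 6 lay below 0, with a median log2 fold change of -0.31. Without Nanoplastics 1 all 6 were still below 0, but the median was -0.14. IFI6 (ENSBTAG00000007554), a small membrane protein that opposes apoptosis, had 245, 337 and 491 CPM in nanoplastics libraries, against 386, 448 and 607 CPM in control libraries. Nanoplastics 1, 2, 5 and 6 were below every control library, while Nanoplastics 3 and 4 lay within the control range. The log2 fold change was -0.37 (SE 0.14, 95% interval -0.67 to -0.06, unadjusted p = 0.0208), with an adjusted p of 0.999 by edgeR. XAF1 (ENSBTAG00000011343), which antagonises the apoptosis inhibitor XIAP, had 5.24, 11.4 and 12.3 CPM in nanoplastics libraries, against 10.9, 12.7 and 18.5 CPM in control libraries, and a log2 fold change of -0.37 (SE 0.18). All 6 nanoplastics libraries were below the control median of XAF1, and Nanoplastics 1 and 2 were below every control library.

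IFI27 (ENSBTAG00000003152), another small membrane protein of the same family, had 482, 609 and 703 CPM in nanoplastics libraries, against 573, 694 and 875 CPM in control libraries, with a log2 fold change of -0.18 (SE 0.11). Nanoplastics 1 and 2 were below every control library, and Control 1 and 3 were above every nanoplastics library. IFI44, a cytoplasmic protein of uncertain mechanism, had 3.06, 8.64 and 12.4 CPM in nanoplastics libraries, against 7.09, 9.93 and 15.0 CPM in control libraries, with a value of -0.34 (SE 0.27). Its neighbour IFI44L had -0.27 (-0.79 to 0.25) and EPSTI1 had -0.14 (-0.43 to 0.14).

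**Figure D3:**
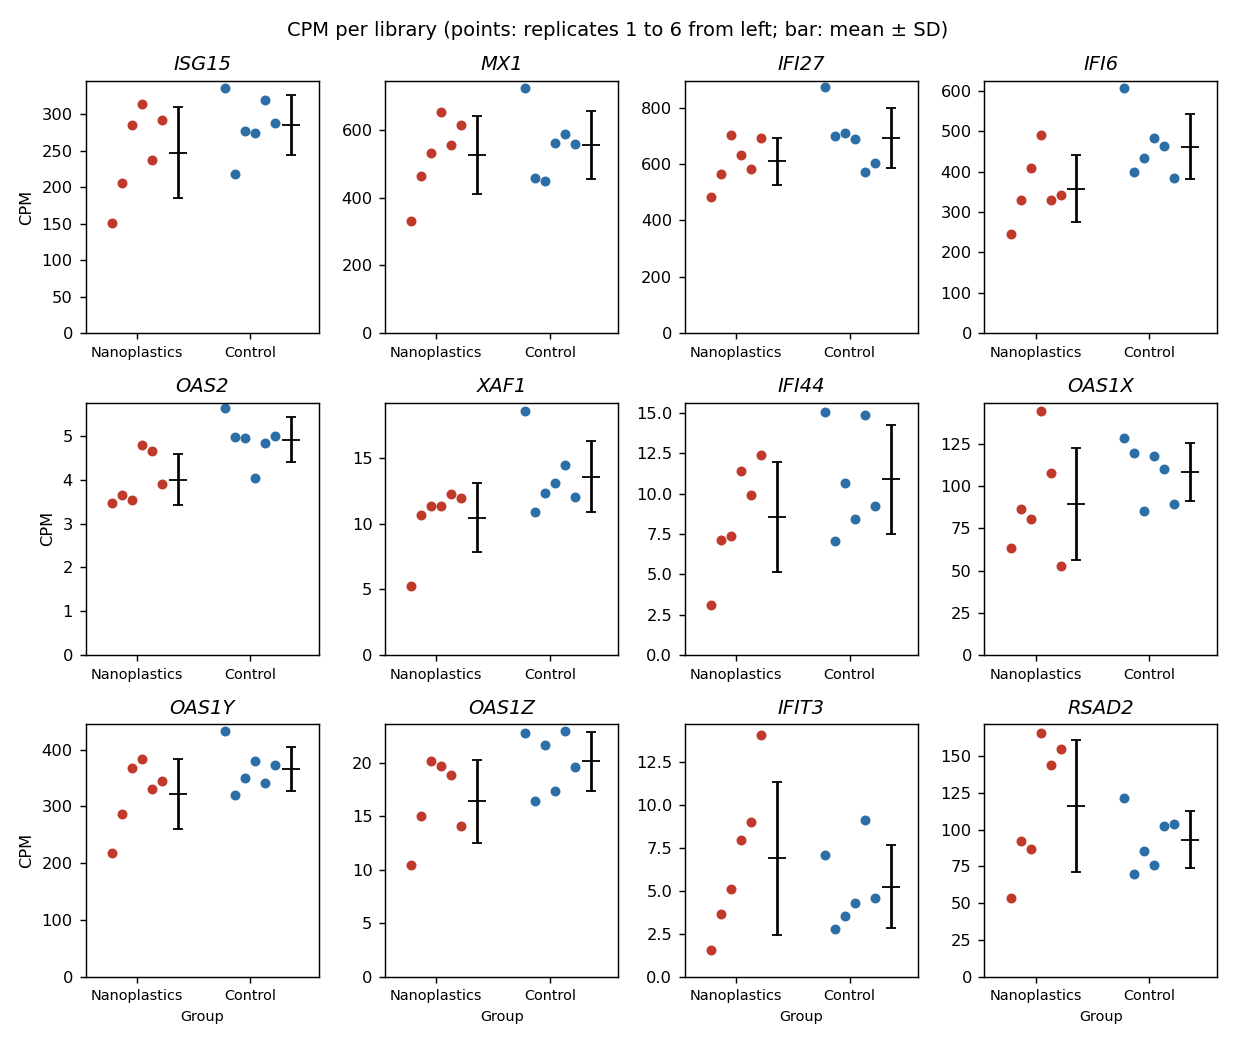
Each panel plots the CPM of 1 gene in 6 nanoplastics (left, red) and 6 control (right, blue) libraries, with the mean ± SD in black and axes from 0. The groups overlap in all 12 panels, Nanoplastics 1 is the lowest of its group in all panels but that of OAS1X, and for RSAD2 the red points of Nanoplastics 4, 5 and 6 lie above all control libraries.

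**Figure D4:**
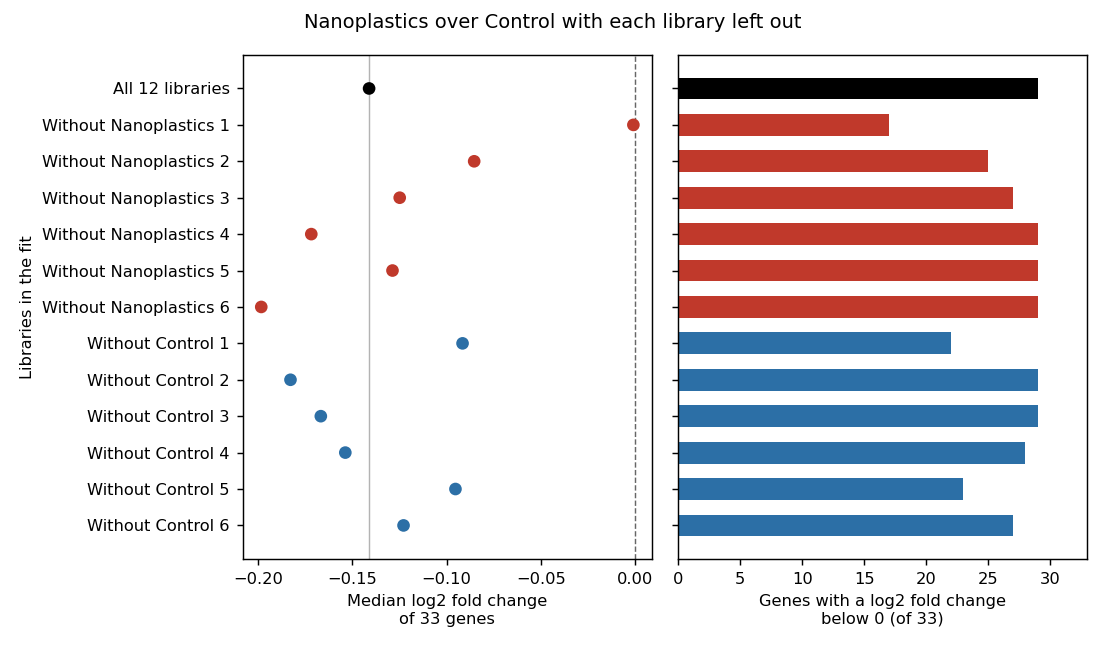
The left panel plots the median log2 fold change of 33 genes and the right panel the number of them below 0, over all 12 libraries (black) and with 1 nanoplastics (red) or control (blue) library left out. The median is -0.14 over all libraries, -0.000979 without Nanoplastics 1 and -0.20 without Nanoplastics 6.

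Other genes of the interferon pathway were counted in the same comparison. Of 51 pathway genes listed, 42 had a row and 33 were tested, of which 22 had values below 0 and 11 above (median -0.01), and 0 were at an unadjusted p under 0.05. Among 9 interferon receptor subunits and kinases 7 lay below 0, with JAK1 at 0.03 (-0.10 to 0.16). IRF9, which carries STAT2 to DNA, had 0.05 (-0.13 to 0.23). Of 11 tested sensors and adaptors 8 lay below 0, with the RNA sensor RIGI at -0.01 (-0.22 to 0.20). UBA7 and UBE2L6, the enzymes that charge and carry ISG15, had -0.11 and -0.07. Of 5 inhibitors of the pathway 4 lay above 0, with the phosphatase PTPN11 at -0.06. ADAR, which edits double-stranded RNA, had -0.01, and 3 of the 4 genes of its list lay below 0.

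Interferon transcripts themselves were at the limit of detection. Of 14 interferon genes listed 8 had a row, none passed the filter, and 3 had a count of 0 in all 12 libraries. No interferon gene had more than 11 counts in any library. IFNT2, the most counted of them, had 43 counts over all 12 libraries together. Interferon genes form families of near-identical copies, so these counts are uncertain.

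The libraries at both ends of the interferon-stimulated gene level lay at opposite ends of the VEGFA level. VEGFA, a secreted growth factor that is induced at low oxygen, had 2037, 1383, 263, 292, 1377 and 345 CPM in Nanoplastics 1 to 6. It had 120, 1200, 580, 483, 108 and 902 CPM in Control 1 to 6. The library with the most VEGFA, Nanoplastics 1, had the least RNA of interferon-stimulated genes, and the next in both orders was Nanoplastics 2. Control 1 and Control 5, with the least VEGFA, were among the 3 libraries with the highest level of the interferon-stimulated genes. Other libraries did not follow this order. Nanoplastics 5 was the library with the next most VEGFA after Nanoplastics 2 but had a mean level of 5.71 for the set, above 7 other libraries. Nanoplastics 3, with 263 CPM of VEGFA, had only 2 libraries below it for VEGFA, yet its mean level of 5.55 for the set was above only 4. Each gene was fitted against the log2 CPM of VEGFA with treatment kept as a term, a comparison chosen after the values had been seen.

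In that fit all 33 genes had a negative slope, with a median of -0.16 log2 units per doubling of VEGFA, against 51.3% of all genes below 0 and a median of -0.002. Of the 33 genes, 15 (45.5%) passed an adjusted p of 0.05 toward lower values by edgeR, beside 3.41% of all genes tested. ISG15 fell by 0.19 log2 units per doubling (95% interval -0.26 to -0.11, adjusted p = 0.00361) and HERC5 had the second smallest adjusted p, with a slope of -0.24 (adjusted p = 0.00436). IFI6 had a slope of -0.17 (adjusted p = 0.0081) and ZBP1 one of -0.21 (adjusted p = 0.00799). These 4 genes were called whichever of the 12 libraries was left out. How many of all genes tested were called in every left-out run was not counted. All 4 were called over the nanoplastics libraries alone, but none of them over the control libraries alone. Also called over all 12 libraries were MX1, IFIT2, IFIT3, IFI44, IFI44L, IFIH1, SAMD9, EPSTI1, PARP14, TRIM21 and USP18. The steepest slopes were those of IFIT3 at -0.41 and IFIT2 at -0.38, both of which had log2 fold changes above 0 with nanoplastics. The slopes nearest to 0, none of them called, were those of CMPK2 at -0.02, OAS2 at -0.03, and IFIT5, PARP9 and DTX3L at -0.05 each. That of CMPK2 was 0.03 without Control 1.

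The slopes were also computed within each group, over the same libraries in which the order had been seen, so these values are a description and no separate support. Over the 6 nanoplastics libraries alone all 33 slopes were negative (median -0.21), beside 51.6% of all genes, and 13 genes (39.4%) were called, beside 6.54% of all genes. Over the 6 control libraries alone all 33 slopes were negative as well (median -0.12), beside 51.6% of all genes. There 4 members (12.1%), IFI44, IFIH1, IFIT2 and IFIT3, were among only 7 genes called toward lower values of 12344 tested (0.0567%). None of those 4 was called over the nanoplastics libraries alone, and the difference between the groups in slope was not tested. Without Nanoplastics 1, 5 members were called beside 1.13% of all genes, and all 33 slopes stayed negative (median -0.11) beside 52.4% of all genes. The count was also below 10 without Nanoplastics 2 (7, or 21.2%, beside 1.79% of all genes) or Nanoplastics 4 (6, or 18.2%, beside 1.98%). The same held without Nanoplastics 6 (6, or 18.2%, beside 1.91%), Control 2 (5, or 15.2%, beside 1.56%) or Control 3 (8, or 24.2%, beside 2.89%). The median slope stayed between -0.11 and -0.19 whichever library was left out.

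**Figure D5:**
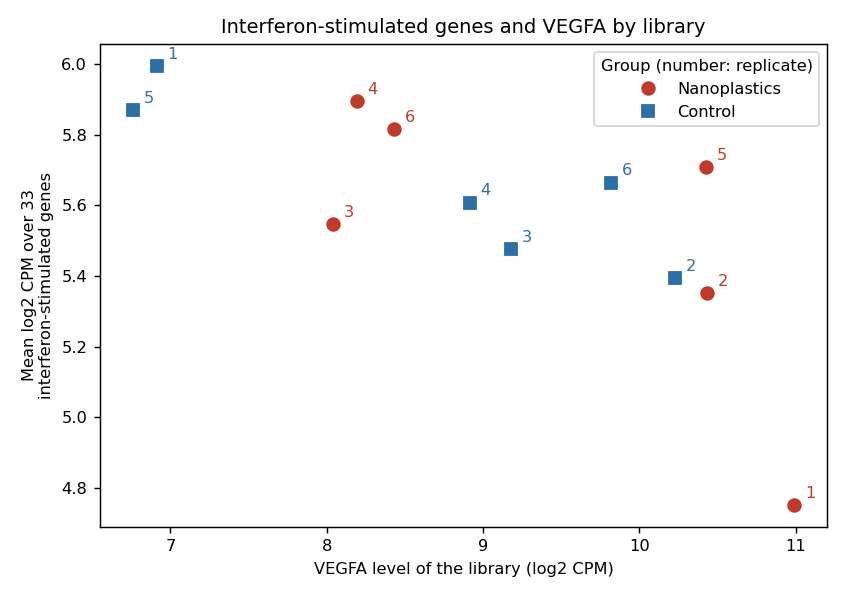
Each point is a library, with its VEGFA level (log2 CPM) on the x axis and the mean log2 CPM of 33 interferon-stimulated genes on the y axis, for nanoplastics (red circles) and control (blue squares), numbered by replicate. The mean is 4.75 in Nanoplastics 1, the library with the most VEGFA, and 6.00 and 5.87 in Control 1 and Control 5, the libraries with the least. Nanoplastics 5 (5.71, high VEGFA) and Nanoplastics 3 (5.55, low VEGFA) lie off this order.

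The pathway genes divided in both directions. Of the 33 pathway genes tested, 19 had negative and 14 positive slopes. Toward lower values 0 were called, beside 3.41% of all genes tested. Toward higher values 2 were called, beside 873 of all 12311 genes tested, so this count does not set the list apart. These 2 were the adaptor TICAM1 (slope 0.19, adjusted p = 0.0328 by edgeR) and the receptor subunit IL10RB (slope 0.09, adjusted p = 0.0360). IRF9 had a slope of -0.02 (adjusted p = 0.741).

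Some markers of cell types were also called against VEGFA, and their part in the result was not tested. Of 11 tested oocyte markers 7 had negative slopes and 4 positive, from -0.20 to 0.25. Called toward lower values were 3 of them, DPPA3, OOSP2 and KPNA7, beside 3.41% of all genes tested. The summed level of the oocyte list was 303 to 480 CPM in nanoplastics libraries and 345 to 519 CPM in control libraries. Over all genes tested, 873 of 12311 were called toward higher values. Of 8 theca and stroma markers 1, DCN, was called in that direction. The summed level of the theca and stroma list was 1592 to 1931 CPM in nanoplastics libraries and 1271 to 1926 CPM in control libraries. Both tested red blood cell markers, HBA and HBM, were called toward higher values, with a summed level of 3.74 to 354 CPM in nanoplastics libraries and 2.46 to 104 CPM in control libraries. No leukocyte, endothelial or cumulus and granulosa marker was called, although all 6 tested leukocyte markers had positive slopes. The summed level of the endothelial list was 39.3 to 54.2 CPM in nanoplastics libraries and 37.9 to 49.1 CPM in control libraries, and that of the cumulus and granulosa list 10081 to 11113 and 9551 to 11075 CPM. For treatment, 7 of 8 theca and stroma markers lay above 0, 2 of them at an unadjusted p under 0.05 by edgeR. Over all 12311 genes, 132 were at that level toward higher values. COL1A2 had a log2 fold change of 2.19 (0.47 to 3.93), the highest of all genes tested, and COL3A1 had 1.06 (0.06 to 2.07). COL1A2 had 15.4 and 7.09 CPM in Nanoplastics 2 and 6, and at most 2.19 CPM in any other library.

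With VEGFA as a covariate in the comparison of treatments, the median log2 fold change of the 33 genes was -0.02 with 17 genes below 0, and 0 genes were called. Nanoplastics libraries averaged 9.42 ± 1.33 log2 CPM of VEGFA and control libraries 8.64 ± 1.47 (SD, n = 6 each). VEGFA level and batch of material cannot be told apart, since the labels give no batch for a sample.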

How the data were processed

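Raw counts per gene, deposited by the authors, were used for 12 libraries of paired reads of 150 bases. Per the submitters' processing notes, the tools included STAR 2.5.4b, Trim Galore 0.4.5 and DESeq2. No source used here names the counter, its strand setting, the genome build or the annotation. After 74 exact copies were dropped, 17983 rows remained. The authors' deposited table gives log2 fold changes and p-values per gene, per the file headers, and 4 columns of other groups in it were not used. No transcript lengths were used, so levels are not compared between genes. Gene order and overlaps were taken from RefSeq ARS-UCD2.0, which listed 32 members. Promoter motifs were not analysed here.

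Genes were filtered with filterByExpr (minimum count 10), scaled with TMM factors, and 12311 of them were tested in edgeR 4.0.16 (R 4.3.3). Alternatives used DESeq2 1.42.0 and limma 3.58.1. A prior count of 2 went into log2 CPM. The tests were checked on simulated counts. The members and lists were chosen with earlier results of these data known. Genes were described in full at an unadjusted p under 0.05, among the 5 largest fold changes, levels or spreads, or as OAS1 copies. P-values measure the spread between these samples, described as independent in the design text. With 12 libraries from 3 batches of material, some libraries share a batch. The fits held no batch term, so the p-values do not account for this. Within groups, every pair of libraries differed by more than counting noise (smallest chi-square per degree of freedom 5.64).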

Additional observations from a re-analysis of the deposited data

Results flagged for a closer look

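The most extreme library of each group was compared with its nearest neighbour, as a share of the range of the group, for the 33 genes and their mean. Of the 68 groups of values compared, 3 were set apart (4.41%), and chance sets apart about 1 in 20, or 3.4 here. All 3 were low values of Nanoplastics 1 on the log2 CPM scale, and the mean over the 33 genes was not among them. The 68 groups came from the same 12 libraries and were not independent. The comparison with chance therefore cannot tell whether Nanoplastics 1 was unusual. PARP9 had 5.64 there, against 5.99 to 6.18 in the other nanoplastics libraries. IFI44L had 3.15, against 4.21 to 4.72. XAF1 had 2.42, against 3.43 to 3.63.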

How the results depend on the processing

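No gene was called for treatment under any alternative run. The members at an unadjusted p under 0.05 numbered 2, and 0 (without Control 1) to 5 (without Nanoplastics 4) with 1 library left out. All genes at that level numbered 259, and 141 (without Nanoplastics 1) to 482 (without Nanoplastics 4). There were 4 such members with DESeq2 and with limma-voom, counts not set beside all genes of those runs. Members below 0 numbered 29, but 17 with VEGFA as a covariate and 17 to 29 with 1 library left out. Same-numbered samples were not paired by the data (2 of 6 correlations over 0.1, and 1 of 6 samples closest to its own number). With the replicate number as a block, 1 member and 288 genes were at an unadjusted p under 0.05 and 0 were called. Against VEGFA, 15 members were called, but 4 over control libraries alone and 5 to 21 with 1 library left out. Of all genes tested, 3.41% were called toward lower values, but 0.0567% over control libraries alone and 1.13% to 6.73% with 1 library left out.

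Of the log2 fold changes, 20 of 33 kept their sign throughout. IFIH1 was 0.000902 without the count filter. With VEGFA as a covariate the sign turned for STAT2 (0.033), IFIH1 (0.17), TRIM21 (0.090), USP18 (0.0014), HERC5 (0.023), MX1 (0.032), IFIT1 (0.12), IFIT5 (0.026), SAMD9 (0.19), GBP4 (0.12), GBP5 (0.042) and DTX3L (0.025). With 1 library left out the ranges that crossed 0 were STAT2 -0.10 to 0.047, IFIH1 -0.12 to 0.16, TRIM21 -0.14 to 0.086, USP18 -0.16 to 0.00681, MX1 -0.16 to 0.021, IFIT1 -0.14 to 0.12, IFIT5 -0.062 to 0.018, SAMD9 -0.16 to 0.17, GBP4 -0.59 to 0.065, GBP5 -0.69 to 0.010, PARP9 -0.10 to 0.00591 and DTX3L -0.084 to 0.058. All 12 of these turned without Nanoplastics 1. The VEGFA slope of CMPK2 ran from -0.079 to 0.029. The cause was not tested. Depth limits GBP4, GBP5, IFIT2 and IFIT3 most, with 12, 15, 20 and 26 counts in their lowest libraries.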
